A study of Mus musculus with 8 samples.

Results

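This account describes 61 genes of the mitochondrial respiratory chain in the open chromatin of cultured mouse cortical neurons. The genes are the protein-coding genes of the GRCm38.p6 RefSeq table whose symbol starts with Nduf or Uqcr, together with Sdha, Sdhb, Sdhc and Sdhd, out of 21887 protein-coding genes on chromosomes 1 to 19, X and Y. By role they comprise 7 core subunits of complex I, 30 supernumerary subunits of complex I, 8 assembly factors of complex I named Ndufaf, the 4 subunits of complex II, 8 subunits of complex III, and 4 other genes with an Nduf symbol (Ndufa4, Ndufa4l2, Ndufb4b and Ndufb4c). For each gene a gene-end peak was a peak with at least 1 bp within 1 kb of either annotated end of the gene. The choice of genes used no measured value.

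Complex I oxidises NADH, complex II oxidises succinate, and both pass electrons through ubiquinone to complex III, which hands them to cytochrome c. Complexes I and III pump protons and so build the gradient that drives ATP synthesis, on which neurons depend heavily. Apart from a few subunits encoded in mitochondrial DNA, the subunits come from nuclear genes that are transcribed in nearly every cell type, typically from CpG-rich promoters with matches for NRF1, ETS factors and YY1. An open gene end shows that transposase could cut there and is not a measure of transcription.

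Open chromatin was measured by ATAC-seq, which marks DNA that Tn5 transposase can reach, in primary neurons from E16.5 embryos. Wild-type neurons (WT, genotype Brg1 WT) and conditional knockout neurons (cKO, genotype BAF53bCre Brg1F/F) were sampled either untreated (basal) or 1 h after adding KCl at 50 mM, which depolarises them. In the cKO a Cre driven by BAF53b, a gene of postmitotic neurons, deletes Brg1, which supplies the ATPase of BAF remodellers, so that other cells of a culture would retain the gene; whether WT cultures carried the Cre is not given in the sources used here. TTX (1 µM) and APV (100 µM) were given on day 5 in vitro before KCl on day 6, and for basal cultures the labels leave this pretreatment open. Each of the 4 conditions had 2 libraries but only 1 peak list, so there is no spread between replicates, no test compares conditions, and intervals cover counting error only.

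The lists differed in length, with 34061 (basal) and 20229 (KCl) peaks for WT and 20484 and 25690 for cKO. The most frequent background under a peak was 9.30, 8.23, 9.47 and 8.36 fragments. Sets of 4 values are given throughout in this order, WT before cKO and basal before KCl. Depth by this measure differed by at most 1.15 times. Of 10 neuronal marker genes, 5 or 6 had a gene-end peak in each list (50.0 or 60.0%), against 38.8 to 46.5% of all protein-coding genes. Tubb3, Map2, Syt1 and Neurod6 had one in all 4 lists, and Rbfox3, Dcx, Gap43 and Slc17a7 in none. Gene-end peaks were called at 0 of 5 microglia markers in every list (upper 95% limit 52.2%), at 1 to 4 of 5 astrocyte markers, at 2 or 3 of 5 oligodendrocyte lineage markers, at 1 or 2 of 4 endothelial markers and at 1 to 3 of 5 progenitor markers. WT basal held the most astrocyte markers (Gfap, Aldh1l1, Slc1a3 and Slc1a2) and the other lists held Slc1a2 alone; the part of cell composition in the results was not tested.

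RefSeq promoter windows (GRCm38.p6, 250 bases before to 50 bases after the annotated start, written 5′ to 3′ on the strand of the gene) are given for 5 genes that stand for the kinds of pattern found. Ndufv2 (chr17:66101510-66101809, minus strand) carried one of the strongest peaks in every list. Ndufa12 (chr10:94198785-94199084, plus strand) lacked a gene-end peak in cKO KCl alone, Ndufaf7 (chr17:78936885-78937184, plus strand) in WT KCl alone, and Uqcrc1 (chr9:108936398-108936697, plus strand) in cKO basal alone. Ndufs6 (chr13:73328433-73328732, minus strand) had none in any list. Capitals mark matches, on either strand, to the consensus motifs described further on.
Ndufv2: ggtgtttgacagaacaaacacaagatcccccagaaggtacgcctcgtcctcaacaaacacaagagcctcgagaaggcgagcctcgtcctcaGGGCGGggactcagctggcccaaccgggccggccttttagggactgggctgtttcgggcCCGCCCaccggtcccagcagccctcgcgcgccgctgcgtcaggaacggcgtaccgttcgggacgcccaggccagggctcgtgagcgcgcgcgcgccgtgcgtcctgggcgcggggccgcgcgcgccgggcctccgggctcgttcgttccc
Ndufa12: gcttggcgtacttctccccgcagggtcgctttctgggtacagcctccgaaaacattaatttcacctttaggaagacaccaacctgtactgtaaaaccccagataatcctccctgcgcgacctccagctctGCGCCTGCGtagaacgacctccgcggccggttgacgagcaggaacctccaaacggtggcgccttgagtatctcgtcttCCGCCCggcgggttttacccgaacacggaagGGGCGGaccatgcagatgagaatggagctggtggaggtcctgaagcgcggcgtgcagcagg
Ndufaf7: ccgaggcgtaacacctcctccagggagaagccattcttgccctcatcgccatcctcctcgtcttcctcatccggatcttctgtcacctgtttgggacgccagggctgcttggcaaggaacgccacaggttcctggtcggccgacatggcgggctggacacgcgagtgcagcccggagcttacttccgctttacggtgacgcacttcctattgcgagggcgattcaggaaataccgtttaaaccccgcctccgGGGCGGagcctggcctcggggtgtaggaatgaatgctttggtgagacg
Uqcrc1: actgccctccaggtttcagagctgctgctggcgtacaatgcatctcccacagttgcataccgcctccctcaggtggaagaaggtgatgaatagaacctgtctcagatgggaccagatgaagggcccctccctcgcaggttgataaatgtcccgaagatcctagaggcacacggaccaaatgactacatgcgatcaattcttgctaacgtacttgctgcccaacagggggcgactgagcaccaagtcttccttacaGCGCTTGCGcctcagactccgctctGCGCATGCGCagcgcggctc
Ndufs6: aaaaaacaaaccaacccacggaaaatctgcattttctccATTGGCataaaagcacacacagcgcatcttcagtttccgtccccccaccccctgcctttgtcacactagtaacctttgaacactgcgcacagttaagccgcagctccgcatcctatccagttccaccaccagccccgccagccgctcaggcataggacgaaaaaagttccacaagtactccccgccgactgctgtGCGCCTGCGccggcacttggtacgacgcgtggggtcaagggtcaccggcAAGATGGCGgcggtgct
In these windows GGGCGG was matched at 2 places in Ndufv2 and Ndufa12 and at 1 in Ndufaf7. The NRF1 motif was matched once in Ndufa12 and Ndufs6 and at 3 positions in Uqcrc1, of which the last 2 overlap and start 31 and 32 bases after the annotated start. The Ndufs6 window also held an NFY match and, 34 bases after the start, a YY1 match.

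Respiratory complex genes were more often open at a gene end than protein-coding genes at large in every list. Of the 61 genes, 44 had a gene-end peak in WT basal (72.1%, 95% Clopper-Pearson interval 59.2 to 82.9), against 46.5% of all protein-coding genes. The share was 70.5% in WT KCl (43 genes, 57.4 to 81.5, against 39.8%). It was 54.1% in cKO basal (33 genes, 40.8 to 66.9, against 38.8%) and 77.0% in cKO KCl (47 genes, 64.5 to 86.8, against 45.2%). At least 1 list held a gene-end peak at 54 of the genes (88.5%, against 56.9%). All 4 lists held a gene-end peak at 27 of the genes (44.3%, against 29.0% of all genes), and 7 genes had none in any list (11.5%, against 43.1%). The lowest of the 4 counts was that of cKO basal, although WT KCl is the shorter list. Among genes with no other gene end within 1 kb, the shares were 68.2, 59.1, 40.9 and 59.1% of 22 members, against 40.9, 34.1, 33.5 and 39.4% of all such genes. The 95% intervals of these members were 45.1 to 86.1, 36.4 to 79.3, 20.7 to 63.6 and 36.4 to 79.3%. In both cKO lists they include the share of all such genes.

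**Figure D1:**
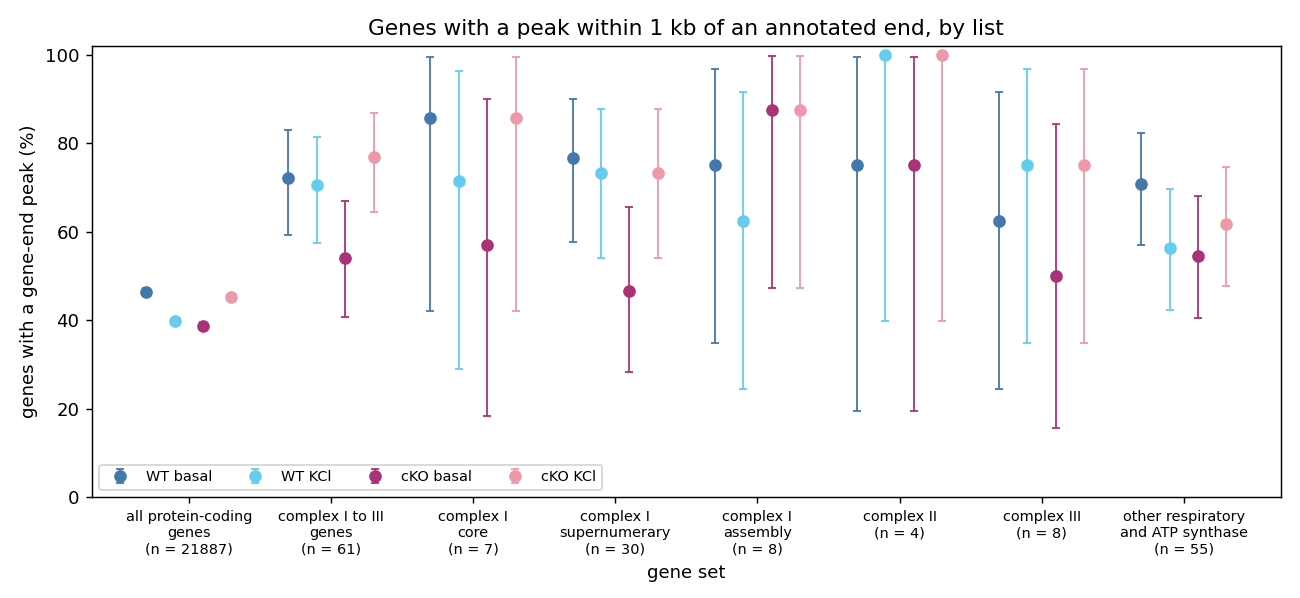
Share of genes (percent, y axis) with a peak within 1 kb of an annotated end, by gene set (x axis, n below each name) and deposited list (colour); points are shares and bars are exact 95% Clopper-Pearson intervals. Complex I to III genes lie at 54.1 to 77.0% and all protein-coding genes at 38.8 to 46.5%, and the cKO basal point is the lowest of the 4 lists for complex I core and supernumerary subunits and for complex III.

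The core subunits of complex I carry the flavin and the iron-sulfur clusters. Ndufv2, a subunit of the NADH-oxidising module, had folds over the local background of 6.55, 6.15, 5.35 and 6.21 in the 4 lists, with summit pileups of 71, 62, 55 and 63 fragments. It was at or above the 97.7th percentile of the peaks of each list. Ndufv1, which binds NADH and the flavin, had folds of 5.43, 6.27, 3.61 and 5.43, and in WT KCl it was 110th of 20229 peaks. Its summit pileups were 78, 68, 45 and 72 fragments, over local backgrounds of 13.56, 10.00, 11.74 and 12.44. The exact 95% Poisson intervals of the pileups were 61.7 to 97.3, 52.8 to 86.2, 32.8 to 60.2 and 56.3 to 90.7. The difference between lists was not tested. Ndufs8, which holds iron-sulfur clusters near the quinone site, was open in all 4 lists with folds of 3.36, 3.90, 3.30 and 3.98. Ndufs1, the large iron-sulfur subunit, had 3.30, 3.03, 2.86 and 3.61.

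Of the other core genes, Ndufs3 and Ndufs7 had gaps. Ndufs3 had no gene-end peak in cKO basal and folds of 2.46 in WT basal, 3.63 in cKO KCl and 3.68 in WT KCl. Ndufs7, which carries the last cluster before quinone, had peaks of 2.38 in WT basal and 2.87 in cKO KCl and none in the other lists. Its local background of 15.36 and 13.62 fragments was above the floor of these lists, and its WT basal peak stood at the 10.2th percentile.

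Supernumerary subunits surround the core of complex I and take part in its stability and assembly. Gene-end peaks were found at 23, 22, 14 and 22 of 30 in the 4 lists (76.7, 73.3, 46.7 and 73.3%). The shares of all genes were 46.5, 39.8, 38.8 and 45.2%, and the cKO basal interval (28.3 to 65.7%) includes that of its list. Of the 30, 11 had a gene-end peak in all 4 lists (36.7%, against 29.0% of all genes). Ndufb5, a membrane arm subunit, had the strongest of these, with folds of 6.08, 5.79, 5.23 and 5.58. Its peak also lay within 1 kb of Mrpl47, a mitochondrial ribosomal protein gene. Ndufab1, the mitochondrial acyl carrier protein, had folds of 4.42, 3.47, 4.07 and 5.13, and Ndufa6, a LYR protein that binds it, had 3.55, 3.71, 3.41 and 4.35. Ndufa13, also known as Grim19, had the lowest mean percentile among genes open in all 4 lists, with folds of 2.74, 2.92, 2.58 and 3.40, although other genes had lower folds in every list but cKO basal. Other supernumerary genes open in all 4 lists were Ndufa2, Ndufa5, Ndufb1, Ndufb2, Ndufb6, Ndufb9 and Ndufv3, at 2.86 to 4.82.

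Supernumerary genes with a peak in 1 list were Ndufb4 (4.18), Ndufs4 (2.91) and Ndufa8 (2.48) in WT basal, Ndufa9 (3.79) and Ndufa1 (3.36) in WT KCl, and Ndufb11 (3.63) and Ndufa10 (2.58) in cKO KCl. The Ndufb4 peak stood at the 89.8th percentile of its list with 42 fragments, and the nearest peak of WT KCl was 62643 bp away. Ndufs6, a subunit near the NADH-oxidising module, was without a gene-end peak throughout, and its nearest peaks in the cKO lists lay 2.41 and 2.66 kb away, within 1 kb of Mrpl36.

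Assembly factors join complex I only while it is built. Of the 8 Ndufaf genes, 6, 5, 7 and 7 had a gene-end peak (75.0, 62.5, 87.5 and 87.5%, against 46.5, 39.8, 38.8 and 45.2% of all genes). Here cKO basal was not the lowest list, but the 95% intervals were wide (24.5 to 91.5% in WT KCl and 47.3 to 99.7% in cKO basal). Whether these genes differ from the subunits was not tested. Ndufaf2, a paralogue of the subunit Ndufa12, had folds of 5.75, 4.75, 4.97 and 5.30 and stood at or above the 94.3th percentile of each list. Its peak (108158281 to 108158946 on chromosome 13 in WT basal) also lay within 1 kb of Ercc8, a gene of transcription-coupled repair. Ndufaf4, Ndufaf5, Ndufaf6 and Ndufaf8 were open in all 4 lists at 2.60 to 3.97. Ndufaf3 had weak peaks in both cKO lists (2.44 and 2.33) and none in the WT lists, and Ndufaf1 had none in any list.

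Ndufaf7, a methyltransferase that acts during assembly, was open in every list but WT KCl. Its start had 46 fragments at the summit in WT basal (95% interval 33.7 to 61.4), 36 in cKO basal (25.2 to 49.8) and 60 in cKO KCl (45.8 to 77.2), with folds of 4.56, 3.53 and 6.05. The nearest WT KCl peak lay 20259 bp from a gene end, and a peak at its floor background needed at least 20 fragments. In cKO KCl the peak (78936959 to 78937383 on chromosome 17) was at the 97.3th percentile. It was shared with Cebpz, whose annotated end lies within 1 kb.

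Complex II is succinate dehydrogenase, an enzyme of both the citric acid cycle and the respiratory chain. Sdha, the flavoprotein, had folds of 3.89, 3.68, 2.86 and 3.21 and summit pileups of 39, 33, 29 and 29 fragments. Sdhb, the iron-sulfur subunit, had folds of 3.82, 3.04, 4.79 and 4.51 and pileups of 58, 37, 67 and 60. The Sdhb peak thus stood above that of Sdha by fold in both cKO lists, below it in WT KCl and level with it in WT basal. Of the membrane anchors, Sdhc had no gene-end peak in WT basal, a fold of 3.57 after KCl in WT, and 3.82 and 3.12 in the cKO lists. Sdhd had 3.79 and 3.68 in the WT lists, 3.74 in cKO KCl and no peak in cKO basal, where the nearest peak was 12909 bp away.

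Complex III passes electrons from ubiquinol to cytochrome c. Uqcrfs1, the Rieske iron-sulfur protein, had folds of 3.49, 3.81, 4.20 and 3.74. Of the core proteins, Uqcrc2 had 4.66, 3.36, 3.72 and 5.30, and Uqcrc1 had 3.50 and 2.82 in the WT lists, 3.21 in cKO KCl and no peak in cKO basal. Uqcrh, the hinge protein, and Uqcrq, a small subunit, were open in all 4 lists at 2.83 to 3.90. Uqcr10 had peaks in the KCl lists alone (3.57 in WT and 2.97 in cKO). Uqcr11 and Uqcrb had none, and the nearest peak of each list lay 3.04 to 3.12 kb from Uqcr11, within 1 kb of Mbd3, and 27.4 to 27.5 kb from Uqcrb, within 1 kb of Mterf3 and Ptdss1.

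Among the remaining Nduf symbols, Ndufa4 had folds of 5.83, 4.55, 4.49 and 5.34, at or above the 93.2th percentile of each list. Its product is now counted with complex IV. Ndufa4l2, a hypoxia-induced relative, had 1 weak peak in cKO KCl (2.49, at the 8.83th percentile). The short gene models Ndufb4b and Ndufb4c had none.

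**Figure D2:**
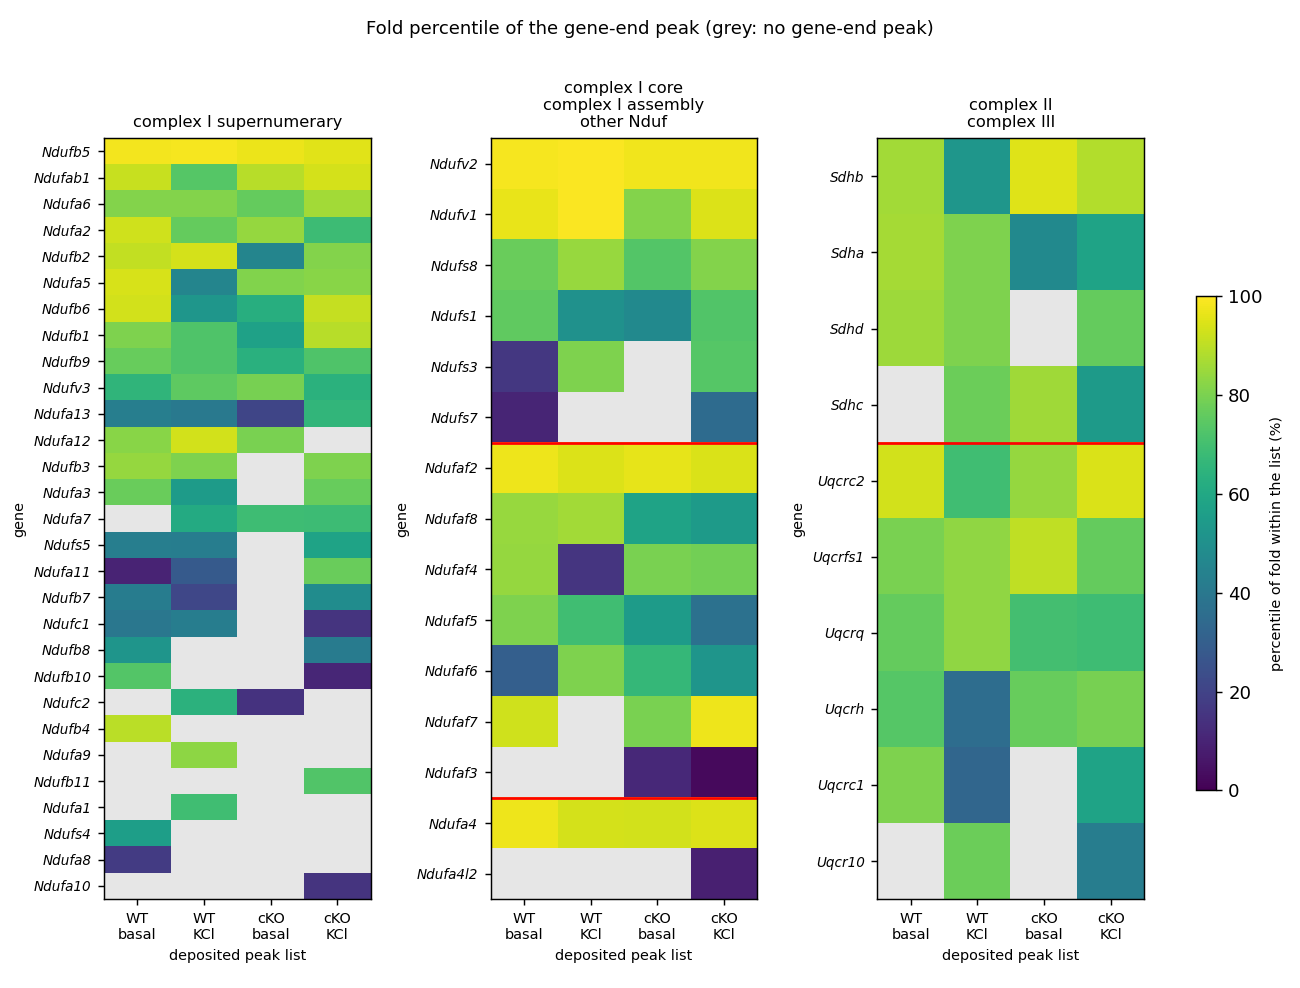
Percentile of the fold (colour, percent of the peaks of that list with a lower fold, ties at their mean rank) of the strongest gene-end peak of each of the 54 genes with one in at least 1 list (rows) in each deposited list (columns), by role; red lines part the roles and grey cells have no gene-end peak. Ndufv2, Ndufb5, Ndufaf2 and Ndufa4 stay above the 90th percentile in all 4 lists, and the cKO basal column is coloured for 33 of the 54 genes.

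Setting the 2 basal lists side by side asks how chromatin differs between the genotypes in undepolarised neurons. A gene-end peak in WT basal without one in cKO basal was found at 15 genes (24.6%, 95% interval 14.5 to 37.3), against 12% of all protein-coding genes. They were the supernumerary genes Ndufa3, Ndufa8, Ndufa11, Ndufb3, Ndufb4, Ndufb7, Ndufb8, Ndufb10, Ndufc1, Ndufs4 and Ndufs5, the core genes Ndufs3 and Ndufs7, and Sdhd and Uqcrc1. The reverse was found at 4 genes, Ndufa7, Ndufaf3, Ndufc2 and Sdhc (6.56%, against 4.25% of all genes), and with peaks at 1 gene alone it was found at 1. With lists of equal length the 15 became 10 and the 4 became 5. With peaks at 1 gene alone the 15 became 10. Shares here are over all members or all genes, and members more often had a peak in each list. Of those with a WT basal peak, the 15 were out of 44 members, against 2616 of 10183 genes. Of those with a cKO basal peak, the 4 were out of 33 members, against 931 of 8498 genes. Both lists held 29 members (47.5%, against 34.6%).

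Peaks missing from cKO basal were weaker in WT basal than those held in both lists. The 15 had a median of 37 fragments at the summit (range 25 to 43) and a median fold percentile of 52.0, and the 29 present in both had medians of 45 fragments and 84.5. A peak at the floor background of cKO basal needed at least 22 fragments. Ndufb4 (42 fragments and a fold of 4.18), Sdhd (38 and 3.79) and Ndufb3 (37 and 3.69) had the highest folds of the 15. No member in the top 10% of WT basal by fold was among them. Weaker peaks were also the ones missing in most other pairs of lists. WT basal peaks missing from WT KCl had a median percentile of 55.9, against 81.5 for shared ones. For cKO KCl peaks missing from WT KCl it was 24.9, against 76.3. The exception was WT KCl peaks missing from cKO KCl (76.2, against 75.0).

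**Figure D3:**
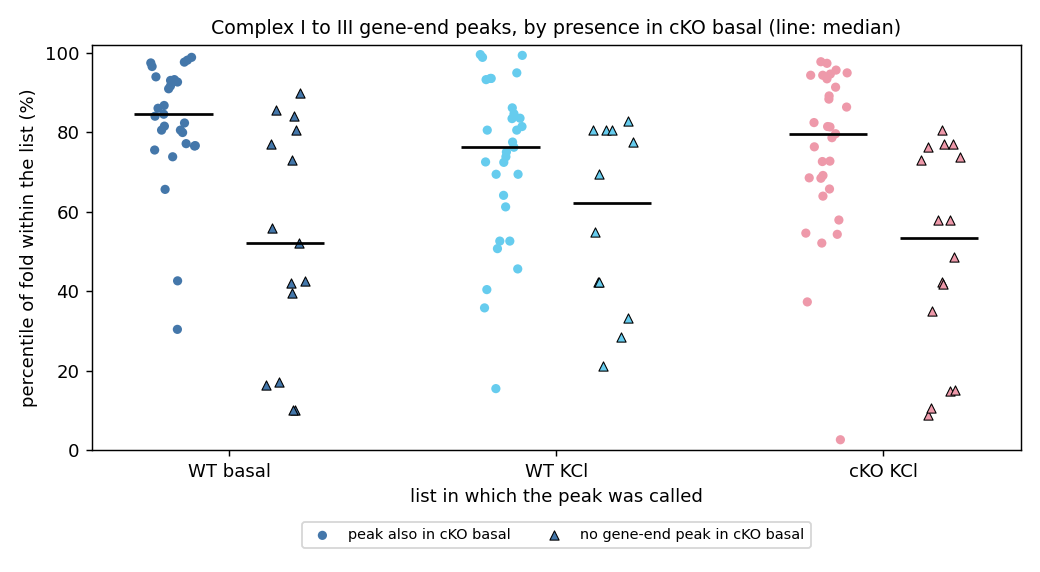
Percentile of fold within the list (y axis, percent) of complex I to III gene-end peaks in WT basal, WT KCl and cKO KCl (x axis), split into genes with (circles) and without (triangles) a gene-end peak in cKO basal; each symbol is 1 gene and lines are medians. Medians of genes with a cKO basal peak are 84.5, 76.2 and 79.6 and those of genes without one 52.0, 62.2 and 53.2.

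Between WT KCl and cKO KCl, which sets the same question in depolarised neurons, most members were shared. Both lists held 39 of the genes (63.9%, against 35.1% of all genes). WT KCl alone of this pair held Ndufa1, Ndufa9, Ndufa12 and Ndufc2 (4 genes, 6.56%, against 4.70% of all genes). Of those with a WT KCl peak, this was 4 of 43 members and 1029 of 8710 genes. Ndufa12, a subunit that joins late in assembly, had 36, 44 and 36 fragments in the lists other than cKO KCl (95% intervals 25.2 to 49.8, 32.0 to 59.1 and 25.2 to 49.8), with folds of 3.59, 4.54 and 3.53, and the nearest cKO KCl peak was 29553 bp away. In cKO KCl alone of the pair were Ndufaf3, Ndufaf7, Ndufa4l2, Ndufa10, Ndufb8, Ndufb10, Ndufb11 and Ndufs7 (8 genes, 13.1%, against 10.1%). Of those with a cKO KCl peak, this was 8 of 47 members and 2214 of 9895 genes. With lists of equal length, or with peaks at 1 gene alone, these 8 became 5, and with −log10 q of at least 5 the 4 in WT KCl alone became 8.

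The WT lists held 44 members before and 43 after depolarisation, while over all genes the count went from 10183 to 8710. With lists of equal length the member count went from 38 to 43, and that of all genes from 8722 to 8710. In the full lists there were 37 genes in both WT lists (60.7%, against 35.1%) and losses and gains at the others. WT basal without WT KCl were Ndufa8, Ndufaf7, Ndufb4, Ndufb8, Ndufb10, Ndufs4 and Ndufs7 (7 genes, 11.5%, against 11.5% of all genes). Of those with a WT basal peak, this was 7 of 44 members and 2507 of 10183 genes. WT KCl without WT basal were Ndufa1, Ndufa7, Ndufa9, Ndufc2, Sdhc and Uqcr10 (6 genes, 9.84%, against 4.72%). Of those with a WT KCl peak, this was 6 of 43 members and 1034 of 8710 genes. With lists of equal length, which shortens WT basal, the 6 became 10, and with peaks at 1 gene alone 2. With −log10 q of at least 5 the 7 became 11. Of the gained genes, Ndufa9, whose product lies near the quinone site, had the highest fold in WT KCl (3.79, 34 fragments with an interval of 23.5 to 47.5).

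In cKO neurons the KCl list held 16 genes that the basal list did not (26.2%, 95% interval 15.8 to 39.1, against 11.0% of all genes). These were Ndufa3, Ndufa10, Ndufa11, Ndufa4l2, Ndufb3, Ndufb7, Ndufb8, Ndufb10, Ndufb11, Ndufc1, Ndufs3, Ndufs5, Ndufs7, Sdhd, Uqcr10 and Uqcrc1. Of them, 9 had a peak in both WT lists as well. With peaks at 1 gene alone the 16 became 9. Of those with a cKO KCl peak, the 16 were out of 47 members, against 2402 of 9895 genes. The largest pileup of the 16 was at Ndufa11, with 64 fragments over a local background of 16.32. Ndufa12 and Ndufc2 went the other way (2 genes, 3.28%, against 4.59%), and both cKO lists held 31 (50.8%, against 34.2%). The comparisons of cKO basal with WT basal and with cKO KCl share the cKO basal list, so their counts are not separate observations.

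Set out over all 4 lists, 9 genes were open in every list but cKO basal, namely Ndufa3, Ndufa11, Ndufb3, Ndufb7, Ndufc1, Ndufs3, Ndufs5, Sdhd and Uqcrc1 (14.8%, 95% interval 6.98 to 26.2, against 3.68% of all genes). Genes missing from another list alone were Ndufa7 and Sdhc for WT basal (3.28%, against 1.06%), Ndufaf7 for WT KCl (1.64%, against 3.18%) and Ndufa12 for cKO KCl (1.64%, against 1.07%). The members present in each set of 3 lists, whatever the remaining list, numbered 29 without regard to WT basal (47.5%, against 30.1% of all genes), 28 for WT KCl (45.9%, against 32.2%), 36 for cKO basal (59.0%, against 32.7%) and 28 for cKO KCl (45.9%, against 30.1%). With lists of equal length the 9 became 6 (9.84%, against 2.74%), and with peaks at 1 gene alone 5 (8.20%, against 2.91%). With −log10 q of at least 5 there were 6 (9.84%, against 3.54%), of which only Ndufb3 and Sdhd were among the 9. At the 9 genes the summit pileup was 25 to 43 fragments in WT basal, 25 to 42 in WT KCl and 24 to 64 in cKO KCl. Between WT KCl and cKO basal, lists of nearly equal length that differ in both genotype and KCl, 12 members were in WT KCl alone (19.7%, against 8.04% of all genes) and 2 in cKO basal alone (3.28%, against 7.07%). Of those with a WT KCl peak, this was 12 of 43 members and 1759 of 8710 genes. Of those with a cKO basal peak, it was 2 of 33 members and 1547 of 8498 genes.

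Where open, the genes were of ordinary strength for gene ends. The median fold percentile of member peaks was 80.5, 75.0, 76.6 and 73.0 in the 4 lists, and over all protein-coding genes with a gene-end peak it was 80.5, 73.8, 74.7 and 75.5. Of the member peaks, 27.3% in WT basal and 16.3 to 19.1% in the other lists were in the top 10% of their list, against 30.2% and 21.9 to 24.1% for all genes. The 10 highest mean percentiles among genes open in all 4 lists were those of Ndufv2 (98.4), Ndufb5 (97.4), Ndufaf2 (95.7), Ndufa4 (94.7), Ndufv1 (93.1), Ndufab1 (87.0), Uqcrc2 (85.2), Uqcrfs1 (82.6), Ndufa6 (81.4) and Sdhb (80.6). The lowest were Ndufa13 (42.4), Ndufaf6 (57.4), Ndufaf5 (60.5), Ndufs1 (61.6) and Ndufaf4 (64.5). Across the 27 genes the Spearman correlation of fold percentiles between 2 lists was 0.33 to 0.74, lowest between WT KCl and cKO KCl and highest between WT basal and cKO KCl. The 6357 genes open in all 4 lists gave 0.64 to 0.78. These points share genomic sites and differ in depth between lists.

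The peaks sat at gene starts. For the genes with an entry in the promoter table (50 of 61), the summit of the strongest gene-end peak lay within 250 bp of the annotated start for 31 of 38, 30 of 36, 20 of 26 and 31 of 39 genes with a peak in the 4 lists. Median positions were 10 to 60.5 bp before the start. The farthest was that of Ndufb6, which lay 9518 to 9774 bp downstream of its start, at the far end of the gene beside Topors and Smim27. Within 1 kb of its own start Ndufb6 had a peak in every list but WT KCl. Uqcrh, Ndufa13 and Ndufa11 also had summits more than 500 bp before the start in at least 1 list. The gene-end peaks nearest to the 1 kb limit lay 751 bp (Ndufa13 in cKO basal) and 650 bp (Ndufb6 in WT KCl) from an end, and the nearest outside it lay 1215 bp (Ndufa10 in cKO basal), 1810 bp (Ndufa9 in WT basal), 1819 bp and 1924 bp (Ndufb10 in WT KCl and cKO basal) away.

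**Figure D4:**
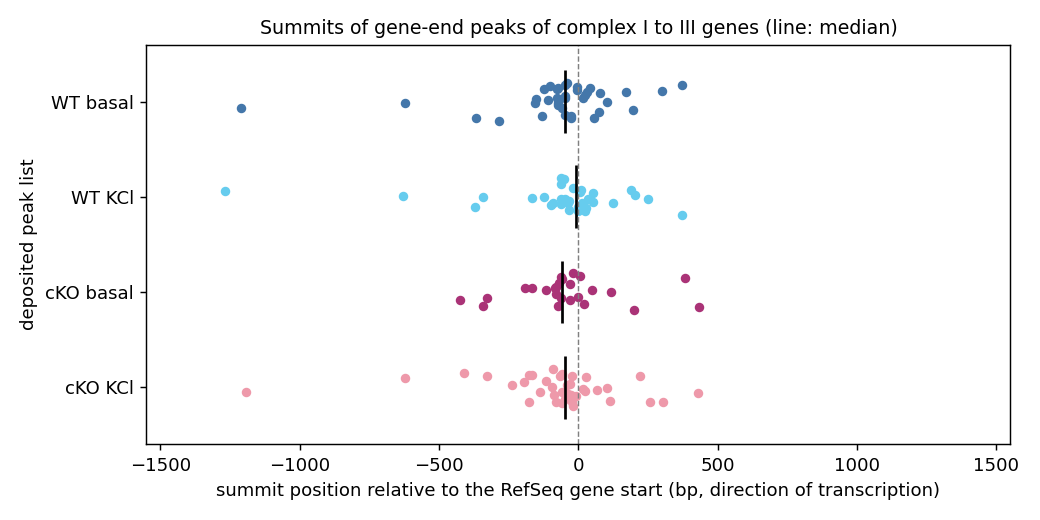
Summit position of the strongest gene-end peak relative to the RefSeq gene start (x axis, bp, negative before the start) in each deposited list (y axis); each point is 1 gene, black lines are medians, and vertical scatter is for display. Most points lie within 250 bp of the start, and Ndufb6, at 9518 to 9774 bp, is beyond the axis.

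Many of these genes share their open site with a neighbour. Another protein-coding gene had an end within 1 kb of an end of 39 of the 61 genes (63.9%), against 24.8% of all genes. Examples are Ndufs3 with Kbtbd4, Sdhd with Timm8b, Ndufa7 with Rps28 and Ndufb9 with Tatdn1. Members with such a neighbour had a gene-end peak at 29, 30, 24 and 34 of 39 (74.4, 76.9, 61.5 and 87.2%). All genes with such a neighbour had 63.7, 57.2, 55.0 and 62.9%. The 95% intervals of members with a neighbour were 57.9 to 87.0, 60.7 to 88.9, 44.6 to 76.6 and 72.6 to 95.7%. In both basal lists they include the share of all such genes. Members without such a neighbour had peaks at 15, 13, 9 and 13 of 22. Cuts at a shared start cannot be assigned to one gene of the pair. Counting only peaks at the ends of 1 gene alone, a choice made after the data were seen, left 22, 18, 13 and 20 of the 61 members (36.1, 29.5, 21.3 and 32.8%), against 35.7, 29.6, 29.1 and 34.1% of all genes. This choice drops peaks of genes with a neighbour, of which the members have more, so the shares under it are not a like comparison of members and all genes. The members were also short, with a median length of 7.69 kb against 17.2 kb for all genes.

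Their promoter windows were rich in CpG. The median ratio of observed to expected CpG was 0.842 for the 50 members with an entry, 0.576 for all 17492 protein-coding genes with one and 0.823 for genes with a gene-end peak in all 4 lists. Median GC content was 59.3, 56.3 and 63.3%. Members open in all 4 lists had 61.0% GC and a CpG ratio of 0.829, and the others 57.3% and 0.870.

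The windows were searched on both strands for 11 consensus motifs: CGCANGCGC for NRF1, CCGGAAG for ETS factors, AANATGGCG for YY1, GGGCGG for SP and KLF factors, GCCAAT for NFY, TGACGTCA for CREB-type factors (CRE), ACTACAA for ZNF143, TGANTCA for AP-1, TCAAGGTCA for ERR, CACGTG for E-box factors and TATAAA for TATA. The NRF1 motif was present in 16 of 50 member windows (32.0%, 95% interval 19.5 to 46.7), in 9.68% of all genes and in 16.6% of genes open in all 4 lists. These 16 included Sdha, Sdhd, Uqcrc1, Uqcr10, Ndufa12 and Ndufs6. The YY1 motif was in 8 windows (16.0%, 7.17 to 29.1), against 3.64% and 6.62%, and the 8 were Ndufa7, Ndufa9, Ndufaf8, Ndufb11, Ndufc1, Ndufs4, Ndufs6 and Ndufs7. Of these only Ndufaf8 was open in all 4 lists, against 21 of the 50 members with a window. Over all genes with the motif, 347 of 637 were open in all 4 lists. The motif was in 1.32% of all genes without a gene-end peak in any list. Whether the motif goes with openness among members was not tested.

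ETS matches were in 10 windows (20%, against 12.9% of all genes and 21.7% of genes open in all 4 lists) and NFY matches in 12 (24.0%, against 19.1 and 26.8%). GGGCGG was in 23 (46.0%, against 49.2 and 75.2%). CRE matches were in 4 (8.0%, against 2.54 and 4.04%), namely Ndufa10, Ndufa11, Ndufb2 and Uqcrfs1. AP-1 matches were in 4 (8.0%, against 8.12% of all genes and 4.35% of genes open in all 4 lists) and TATA matches in 4 (8.0%, against 14.8 and 6.81%). The remaining motifs were rare, with ZNF143 in 3 windows (6.00%, against 4.19 and 5.51%), E-box in 2 (4.0%, against 8.91 and 11.2%) and ERR in Sdhd alone (2.00%, against 0.377 and 0.172%). A match describes letters in the window and does not show that a factor binds there.

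**Figure D5:**
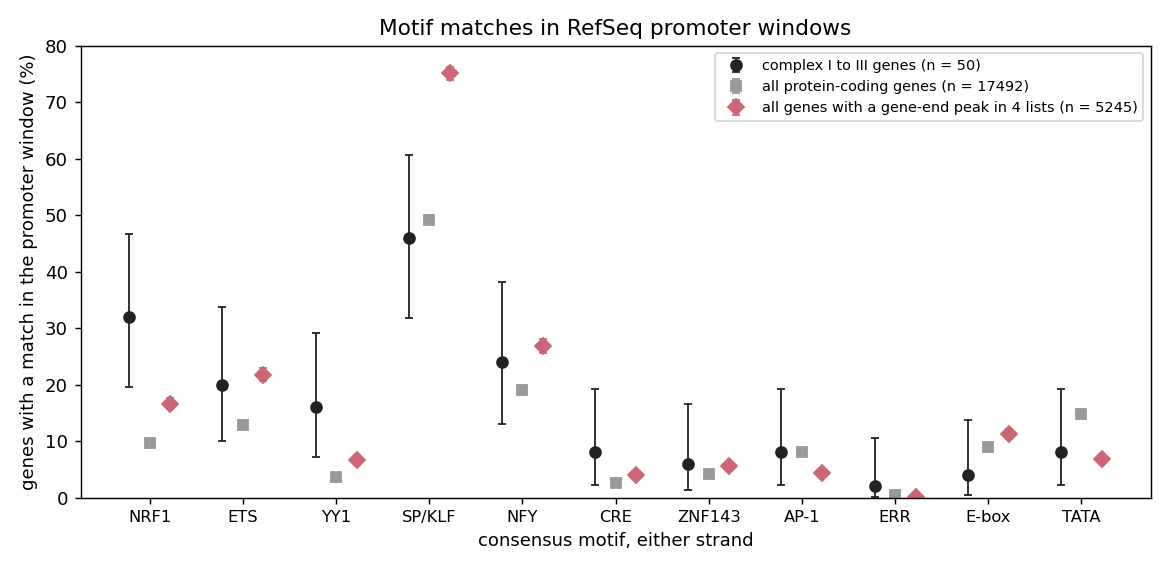
Share of genes (percent, y axis) with at least 1 match of each consensus motif (x axis) in the RefSeq promoter window, for complex I to III genes (n = 50), all protein-coding genes (n = 17492) and genes with a gene-end peak in all 4 lists (n = 5245); bars are exact 95% Clopper-Pearson intervals. NRF1 (32.0%) and YY1 (16.0%) matches in complex I to III genes lie above both other sets, and GGGCGG (46.0%) lies below the genes open in all 4 lists (75.2%).

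Other genes of oxidative phosphorylation, from a list made with earlier results of these data known, gave a mixed picture. Of 55 matched genes (partners and assembly factors of complexes I to III, complex IV and complex V), 39, 31, 30 and 34 had a gene-end peak (70.9, 56.4, 54.5 and 61.8%). The shares of all protein-coding genes were 46.5, 39.8, 38.8 and 45.2%. Complex IV, cytochrome c oxidase, had 8, 8, 4 and 6 of 17, a list that holds the tissue-restricted isoforms Cox4i2, Cox6a2, Cox6b2, Cox7a1, Cox8b and Cox8c. These were 47.1, 47.1, 23.5 and 35.3%, below the share of all genes in both cKO lists. The 95% intervals there (6.81 to 49.9 and 14.2 to 61.7%) include that share. Only Cox8a of this complex was open in all 4 lists (5.88% of the 17, against 29.0% of all genes), with folds of 3.63, 3.16, 3.41 and 4.67. Of 16 genes of ATP synthase and its inhibitor, 14, 10, 10 and 11 were open (87.5, 62.5, 62.5 and 68.8%). Cyc1, the cytochrome of complex III, had no peak in WT KCl and folds of 3.49, 3.70 and 3.60 in the other lists.

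Most genes for regulators of the respiratory chain were open in all 4 lists. Of 12, 10 had a gene-end peak in all 4 lists (83.3%, against 29.0% of all genes), among them Nrf1 (folds 4.66, 4.34, 4.66 and 4.93), Ppargc1a, the coactivator of mitochondrial biogenesis (4.92, 3.95, 4.18 and 3.64), and Tfb2m, a mitochondrial transcription factor (8.97, 5.86, 5.63 and 8.60). Gabpb2 lacked a peak in cKO basal alone, and Gabpb1 had none. Gabpa and the ATP synthase gene Atp5j had the same folds in every list (6.04, 4.26, 4.55 and 5.56).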

How the data were processed

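ATAC-seq libraries (8, in 4 conditions of 2) were made from 50000 cells each (7 to 9 cycles of amplification, read pairs of 75 bp), per the labels' protocols. The builds GRCm38 and mm10 (one assembly) and the tools Bowtie2 and MACS2 are named in the submitters' processing notes. No version, filter, Tn5 shift, fragment range for nucleosome-free reads or way of combining libraries is stated in the labels or files. The authors deposited 1 narrowPeak list per condition, matched to it through its file and peak names. Its deposited columns hold a score, a fold (ratio) over the local background at the summit, the −log10 of p and of q, and the summit's distance from the start. All are the authors' values per peak and served only for description, ranking and filtering inside a list.

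Only the nuclear chromosomes 1 to 19, X and Y entered, so 5 mitochondrial peaks per list were left out. A gene with several gene-end peaks took the strongest. The fold percentile is the share of the list's peaks with a lower fold, with tied peaks counted at their mean rank. Summit pileup and background were solved from the fold, taken as (pileup + 1)/(background + 1), and the Poisson p-value. A whole-number pileup met both within 0.001 in −log10 p for 100% of peaks, and the solver was tested on simulated data. Most summits rest on few fragments (median 30 to 33 per list), which limits precision. Gene positions, starts and promoter sequences came from the RefSeq tables of GRCm38.p6, in which 50 of the 61 genes have a promoter entry. Analyses used Python 3.11.15, pandas 2.3.3 and scipy 1.17.1. Of the pathway lists, 1 entry (Coa1) was not matched. No columns of unmatched samples were present (0).

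The genes and lists were chosen with earlier results of these data known. Named genes were those lacking a gene-end peak in at least 1 list, the 10 highest and 5 lowest mean percentiles among genes in all 4 lists, complex II, catalytic subunits and genes nearest the 1 kb limit; remaining genes were added for completeness, and 1 gene is not reported here. Alternatives were a window of 500 bp or 2 kb, −log10 q of at least 5, lists of equal length (20229 peaks), the summit in place of the peak, gene starts alone, peaks at 1 gene alone and, for motifs, the last 150 bases.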

Additional observations from a re-analysis of the deposited data

Results flagged for a closer look

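KCl went with changes of opposite sign in the 2 genotypes for the gene set, where WT had 7 losses and 6 gains. The call changed in opposite directions at 4 genes. With 1 list per condition these differences were not tested. The number of complex I to III genes with a gene-end peak changed by -1 from WT basal to WT KCl and by 14 from cKO basal to cKO KCl. Over all protein-coding genes these changes were -1473 and 1397. With lists of equal length the members changed by 5 in WT and by 10 in cKO, and all genes by -12 and 725, so that the members' signs were then no longer opposite.

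Ndufs7, Ndufb8 and Ndufb10 lost the peak from basal to KCl in WT and gained one in cKO, where the folds after KCl were 2.87, 2.95 and 2.53. This pattern held for 4.92% of members (95% interval 1.03 to 13.7), against 2.92% of all genes. Ndufc2 went the other way, with a fold of 2.48 in cKO basal and 3.25 in WT KCl. It had no gene-end peak in WT basal or cKO KCl, a pattern of 1.64% of members and 0.580% of all genes.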

How the results depend on the processing

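No paired analysis was possible because each condition has 1 list and the deposited columns carry no replicate; leaving out a library was not run for the same reason. In all 8 settings cKO basal had the fewest members with a gene-end peak, as it had the fewest genes at large. With −log10 q of at least 5, members in all 4 lists fell to 16, members in none rose to 14, WT KCl without cKO KCl became 8 and WT basal without WT KCl 11, and median percentiles became 61.2, 56.1, 53.6 and 55.4 (WT basal, WT KCl, cKO basal, cKO KCl). With lists of equal length, cKO KCl without WT KCl became 5, WT KCl without WT basal 10 and the WT basal median 71.7. With gene starts alone, 4 of 50 members had no peak. With peaks at 1 gene alone, the lists held 22, 18, 13 and 20 members, all 4 lists 10 and none 36; cKO basal without WT basal became 1, cKO KCl without WT KCl 5, WT KCl without WT basal 2 and cKO KCl without cKO basal 9. In the last 150 bases, AP-1 and E-box matches fell to 1 each and TATA to 2. Fewer peaks or bases enter each of these settings. The change in members from basal to KCl was -1 in WT and reversed to 5 with lists of equal length; it was -2 with the 500 bp window and with −log10 q of at least 5, -3 with gene starts alone and -4 with peaks at 1 gene alone, where that in cKO was 7. WT KCl without cKO basal became 6 with peaks at 1 gene alone, and the reverse 1, or 5 with −log10 q of at least 5. Members in every list but cKO basal became 5 with peaks at 1 gene alone. Those in every list but WT basal became 1 (−log10 q, gene starts) or 0 (1 gene alone), in every list but WT KCl 2 (500 bp, gene starts) or 5 (−log10 q), and in every list but cKO KCl 2 (gene starts). The settings for these last counts were applied after the data were seen. The remaining counts in these settings stayed within 1.5 times. Windows of 500 bp and 2 kb changed the number of lists for 2 and 3 of the 61 genes, and the summit rule for 0.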
